A study of Mus musculus with 6 samples.

Results

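The genes described here move calcium out of, into and back to the endoplasmic reticulum (ER) of a cell. They are the IP3 receptors Itpr1, Itpr2 and Itpr3, the ER calcium sensors Stim1 and Stim2, the plasma membrane channels Orai1, Orai2 and Orai3, and the ER calcium pumps Atp2a2 and Atp2a3. All 10 were found by symbol among the 17582 genes of a deposited expression table, made from first molars of the mouse lower jaw at postnatal day 4. The tissue came from C57BL/6 mice of 2 genotypes, with 3 libraries each. The knockout libraries carried K14-Cre and floxed Wnt10a alleles (K14-Cre; Wnt10aflox/flox), and the control libraries carried the floxed alleles without Cre (Wnt10aflox/flox). K14-Cre is a recombinase under the keratin 14 promoter, which is active in epithelium, so the mesenchyme of the molar was not its target. The effect of Cre itself cannot be told apart from that of the deletion. The labels do not give the number of animals behind a library, so p-values measure only the spread between these samples. Itpr1 was chosen by its knockout against control difference in FPKM in these same libraries, where it stood second by p among 11934 tested genes. The others were chosen as its paralogs and as the genes of calcium entry that enamel-forming cells use, with earlier results of these data known.

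IP3 receptors are channels that release calcium from the ER when inositol trisphosphate, made by phospholipase C at the cell surface, binds them. When the store runs low, STIM proteins in the ER membrane open ORAI channels in the plasma membrane, a process called store-operated calcium entry, and SERCA pumps refill the store. In enamel-forming cells this route is known to carry calcium into the cell, and loss of STIM1 or ORAI1 function in people leads to defective enamel mineralization.

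The libraries were of like depth, estimated at 17960000 to 18540000 reads. Markers of ameloblasts, the enamel-forming cells, were all found (10 of 10), and 9 reached 1 FPKM in at least 3 libraries. The list is not of 1 stage or cell type alone. It includes Slc24a4, which maturing enamel cells need, and Dspp, also an odontoblast marker. Amelx, which encodes amelogenin, was at 166874 to 201392 FPKM in knockout and at 168869 to 199931 FPKM in control libraries. FPKM are fragments scaled to transcript length and to the library's mapped total. Wnt10a was at 19.39, 19.94 and 18.07 FPKM in the knockout and at 33.61, 36.59 and 31.68 FPKM in the control, lower in every library that carried Cre. It was the one gene past an adjusted p of 0.05 (limma, knockout over control). The dissected molar holds many cell types, so fewer cells of a type and less RNA per cell cannot be told apart in any value that follows.

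Paralogs can share reads, so the coding sequences were compared first. The longest identical run of a pair is shown in capitals with the 15 bases on either side in lower case, 5′ to 3′ on the coding strand, from GENCODE transcripts of GRCm38 (mm10). The 3 IP3 receptors share at most 32 bases, the ORAI genes at most 29, Stim1 and Stim2 15, and the pumps 44. No run of 50 bases is common to the members shown of 1 family, so a read of that length without mismatches tells these members apart. The sources used here do not give the read length. These pairs are shown because the contrast between Itpr1 and its paralogs rests on telling them apart.
Itpr1, with Itpr2: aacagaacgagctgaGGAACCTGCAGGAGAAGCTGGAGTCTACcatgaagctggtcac
Itpr2, with Itpr1: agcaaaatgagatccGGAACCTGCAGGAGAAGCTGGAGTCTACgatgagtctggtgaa
Itpr1, with Itpr3: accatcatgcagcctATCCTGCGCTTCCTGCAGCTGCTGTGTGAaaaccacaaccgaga
Itpr3, with Itpr1: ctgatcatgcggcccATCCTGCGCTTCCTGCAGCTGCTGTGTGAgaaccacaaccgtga
Orai2, with Orai3: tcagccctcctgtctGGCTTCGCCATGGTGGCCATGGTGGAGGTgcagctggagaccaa
Orai3, with Orai2: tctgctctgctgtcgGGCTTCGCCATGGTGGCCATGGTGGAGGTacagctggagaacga
Atp2a2, with Atp2a3: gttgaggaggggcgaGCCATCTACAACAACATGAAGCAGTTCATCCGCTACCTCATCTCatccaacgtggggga
Atp2a3, with Atp2a2: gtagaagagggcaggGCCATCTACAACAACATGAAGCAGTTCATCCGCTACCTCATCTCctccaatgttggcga

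The run common to Itpr1 and Itpr2 starts at base 8084 of the 8250 coding bases of Itpr1, near the end of the protein, and that common to Itpr1 and Itpr3 starts at base 5902. The run of Orai2 and Orai3 lies in the first membrane-spanning segment, which lines the pore of ORAI channels. Outside the 10 genes, 2.03% of the 50-base runs of Itpr1 also occur in the transcripts Gm44040 and Gm44101, annotated on the opposite strand. For Itpr3, 1.51% of its runs occur in its antisense transcript Itpr3os. Atp2a2 shares 5.43% with Gm30970 and Gm43361, and Atp2a3 shares 0.0878% with Atp2a1, a pump gene outside the 10. A read within a run shared with Atp2a1, a paralog, cannot be set apart by its sequence. The sources used here do not say whether the reads keep their strand. Reads from partners on the opposite strand thus cannot be set apart from those of the members.

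Itpr1 encodes the type 1 IP3 receptor, known as the main form in neurons. Its position in mm10 is chromosome 6, bases 108213096 to 108551109, plus strand, and the table lists 1 transcript of 9877 bases for it. Itpr1 was at 10.54, 11.62 and 11.56 FPKM in the knockout libraries and at 17.91, 16.63 and 20.93 FPKM in the control libraries. Every knockout value lay below every control value, by 5.01 FPKM at the nearest pair. Knockout molars averaged 11.2 ± 0.607 FPKM against 18.5 ± 2.21 FPKM in control molars (SD, n = 3 each), which is -39.2%. On the log2(FPKM + 1) scale, where changes of low genes are understated, the difference was -0.67 (SE 0.091, 95% interval -0.867 to -0.465). The gene was picked for this difference, so it is given as a description. Its limma adjusted p over all genes was 0.0735. It passed the threshold without control 2 (limma adjusted p = 0.0409), the control library nearest the knockouts. With any other library left out it did not pass (limma adjusted p between 0.0769 and 0.497). Since Itpr1 was picked for this contrast, nothing is read from the pass.

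These levels rest on 1924 to 2094 rebuilt reads per knockout library and 2941 to 3800 per control library. Counting error at the mean of these reads is 1.94%, below the coefficient of variation between libraries, which was 5.40% in the knockout and 11.9% in the control. Control 3 held the most Itpr1 of all libraries.

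Itpr3 encodes the type 3 receptor, known from epithelia and secretory cells, and was the most abundant IP3 receptor in every library. It lies at chromosome 17, bases 27057304 to 27122223 on the plus strand. Itpr3 was at 35.07, 45.79 and 39.04 FPKM in the knockout libraries and at 47.14, 42.92 and 36.82 FPKM in the control libraries. The groups overlapped over most of their range. Knockout molars averaged 39.97 ± 5.42 FPKM against 42.3 ± 5.19 FPKM in control molars (SD, n = 3 each). By limma this was -0.08 in log2 (SE 0.109, 95% interval -0.320 to 0.158, adjusted p = 0.936). As a fold this interval runs between 0.801 and 1.12 on the FPKM + 1 scale.

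Itpr2 encodes the type 2 receptor, known as the main IP3 receptor of heart muscle cells. Its gene is at chromosome 6, bases 146108299 to 146502223 on the minus strand. Itpr2 was at 0.66, 0.87 and 0.88 FPKM in the knockout libraries and at 1.03, 0.94 and 1.08 FPKM in the control libraries. The knockout values lay below the control values, by 0.06 FPKM at the nearest pair. The counting intervals of that pair overlapped, with 191 rebuilt reads in knockout 3 (exact Poisson 95% interval 0.760 to 1.01 FPKM) and 199 in control 2 (0.814 to 1.08 FPKM). Itpr2 missed the filter of 1 FPKM in at least 3 libraries. Without that filter its log2 fold change was -0.16 with a limma adjusted p of 0.895 (SE 0.074).

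The makeup of the IP3 receptor pool is given next. Itpr1 made up 22.8%, 19.9% and 22.5% of the summed FPKM of the 3 receptors in the knockout libraries and 27.1%, 27.5% and 35.6% in the control libraries. The groups did not overlap, and since Itpr1 was chosen for its difference the share has no test. Itpr3 exceeded Itpr1 by 3.33, 3.94 and 3.38 times in the knockout libraries and by 2.63, 2.58 and 1.76 times in the control libraries. Itpr2 held 1.43% to 1.84% of the pool in all 6 libraries. The summed level of the 3 genes was 46.27, 58.28 and 51.48 FPKM in the knockout and 66.08, 60.49 and 58.83 FPKM in the control. These sums did not overlap, with knockout 2 and control 3 nearest. They include Itpr1, chosen for its difference, so nothing is read from this separation. Itpr3, the largest part of each sum, overlapped between the groups.

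**Figure D1:**
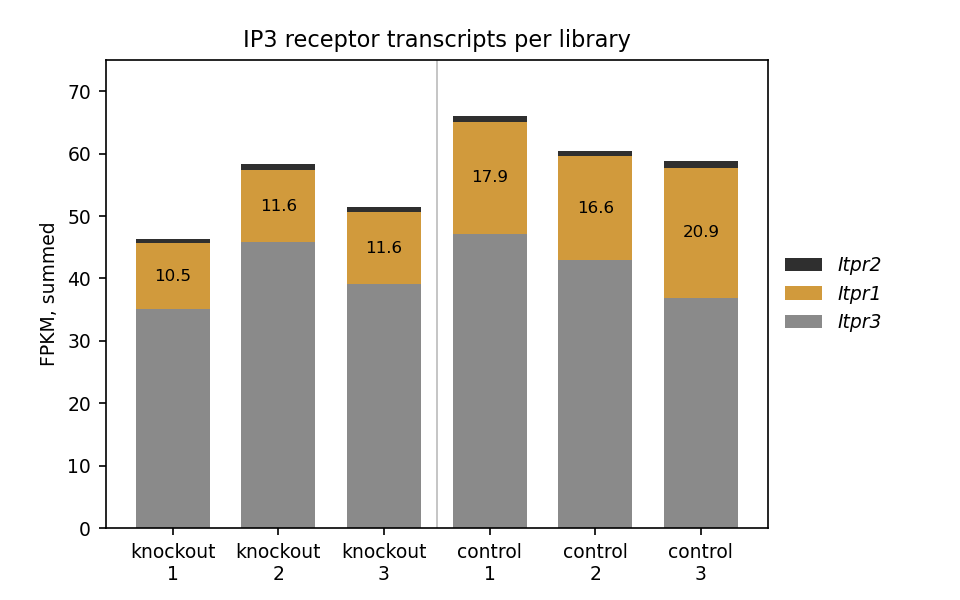
Stacked bars give the FPKM of Itpr3, Itpr1 and Itpr2 in each library, knockout libraries left of the line and control libraries right of it, with the value of Itpr1 printed in its segment. Itpr1 reached at most 11.62 FPKM in the knockout and at least 16.63 FPKM in the control, while Itpr3 varied over a like range in both groups.

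Stim1 and Stim2 encode the ER calcium sensors. STIM1 responds to strong emptying of the store, and STIM2 to small falls in ER calcium. Stim1 is at chromosome 7, bases 102267806 to 102437319 on the plus strand, and Stim2 at chromosome 5, bases 53998499 to 54121057 on the plus strand. Stim1 was at 25.43, 28.39 and 28.39 FPKM in the knockout libraries and at 28.08, 28.37 and 26.21 FPKM in the control libraries. The groups overlapped, and limma gave -0.009 in log2 (SE 0.073, adjusted p = 0.992). Stim2 was at 14.26, 14.49 and 13.92 FPKM in the knockout libraries and at 14.49, 14.81 and 13.73 FPKM in the control libraries. These groups overlapped too, and limma gave -0.01 in log2 (SE 0.071, adjusted p = 0.990). The intervals as folds on the FPKM + 1 scale ran between 0.889 and 1.11 for Stim1 and between 0.891 and 1.11 for Stim2. They bound a change in the RNA level of either gene over the whole molar at about these sizes, not within a cell type. Both log2 fold changes were near 0, and the sign of each turned under other settings.

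Stim1 made up 64.1%, 66.2% and 67.1% of the STIM transcripts in the knockout libraries and 66.0%, 65.7% and 65.6% in the control libraries. The shares overlapped (exact two-sided permutation p = 1, adjusted over the 3 shares tested p = 1), where 3 against 3 libraries cannot give a p below 0.1. Control libraries varied less in this share (SD 0.177 percentage points) than knockout libraries did (SD 1.56).

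Orai1 encodes the pore subunit of the store-operated channel best known from lymphocytes and enamel cells. Its gene is found at chromosome 5, bases 123015074 to 123030456 on the plus strand. Orai1 was at 4.98, 5.04 and 4.64 FPKM in the knockout libraries and at 5.28, 6.01 and 6.09 FPKM in the control libraries. Every knockout value lay below every control value, but knockout 2 and control 1 were only 0.24 FPKM apart. Knockout molars averaged 4.89 ± 0.216 FPKM against 5.79 ± 0.446 FPKM in control molars (SD, n = 3 each), which is -15.7%. Limma gave -0.21 in log2 (SE 0.087, 95% interval -0.396 to -0.014). It did not pass over all genes (limma adjusted p = 0.869). Orai1 is short, 1871 bases, and held 157 to 207 rebuilt reads per library, for which counting error alone is 7.47%.

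Orai2 and Orai3 encode the related channel subunits, and ORAI3 is known from mammals alone. Orai2 is at chromosome 5, bases 136147459 to 136170713 on the minus strand, and Orai3 at chromosome 7, bases 127769815 to 127775150 on the plus strand. Orai2 was at 16.83, 18.46 and 18.44 FPKM in the knockout libraries and at 17.75, 16.96 and 17.82 FPKM in the control libraries. Its groups overlapped, at a log2 fold change of 0.03 (SE 0.072, 95% interval -0.128 to 0.188, limma adjusted p = 0.965). Orai3 was at 12.31, 11.64 and 12.17 FPKM in the knockout libraries and at 12.35, 13.75 and 10.51 FPKM in the control libraries. The knockout values of Orai3 all lay within the control range, and limma gave -0.01 in log2 (SE 0.094, 95% interval -0.219 to 0.197, adjusted p = 0.992).

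Per transcript length, Orai2 was the most abundant ORAI gene and Orai1 the least in every library. Orai1 made up 14.6%, 14.3% and 13.2% of ORAI transcripts in the knockout libraries and 14.9%, 16.4% and 17.7% in the control libraries. The groups did not overlap, and the exact two-sided permutation p was 0.1, the smallest that 3 against 3 can give (adjusted over the 3 shares tested, p = 0.3). Summed over the 3 ORAI genes, knockout molars averaged 34.8 ± 0.623 FPKM against 35.5 ± 1.16 FPKM in control molars (SD, n = 3 each).

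Atp2a2 encodes SERCA2, the pump that most cells use to refill the ER, and was the most abundant of the 10 genes. It spans chromosome 5, bases 122453513 to 122502225 on the minus strand. Atp2a2 was at 99.30, 107.24 and 112.84 FPKM in the knockout libraries and at 121.53, 115.12 and 115.62 FPKM in the control libraries. The knockout values lay below the control values, with knockout 3 and control 2 nearest at 2.28 FPKM apart. Knockout molars averaged 106 ± 6.80 FPKM against 117 ± 3.57 FPKM in control molars (SD, n = 3 each), which is -9.34%. Limma gave -0.14 in log2 (SE 0.069, 95% interval -0.294 to 0.011) and did not pass (limma adjusted p = 0.880). With 8233 to 9783 rebuilt reads per library, counting error is 1.05%, below the spread between libraries in either group.

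Atp2a3 encodes SERCA3, known from blood cells and some epithelia, and was the lowest of the 10. This gene spans chromosome 11, bases 72961169 to 72993044 on the plus strand. Atp2a3 was at 0.23, 0.38 and 0.59 FPKM in the knockout libraries and at 0.34, 0.16 and 0.49 FPKM in the control libraries. The groups overlapped, and each value rests on 13 to 50 rebuilt reads. A difference within that counting error was not detectable at this depth. Atp2a2 made up 99.5% to 99.8% of these pump transcripts in the knockout and 99.6% to 99.9% in the control (exact two-sided permutation p = 0.5, adjusted over the 3 shares tested p = 0.75).

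**Figure D2:**
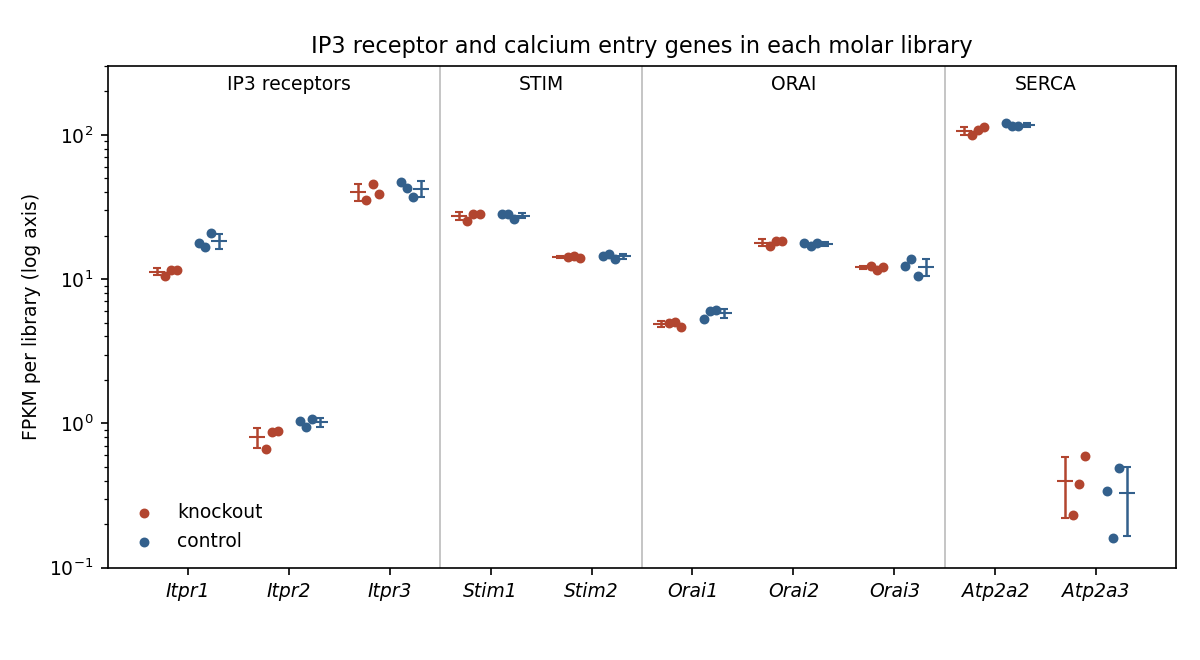
Points give the FPKM of each gene in each library on a log axis, knockout libraries left of control libraries, and crosses with bars give the mean and SD of 3 libraries. Itpr1 shows the widest gap between groups, and the levels run from at most 1.08 FPKM for Itpr2 and Atp2a3 to 99.30 FPKM or more for Atp2a2.

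By mean level over the 6 libraries the order was Atp2a2, Itpr3, Stim1, Orai2, Itpr1, Stim2, Orai3, Orai1, Itpr2 and Atp2a3. Most neighbours in this order were apart in every library, for example Atp2a2 and Itpr3, whose means were 112 and 41.1 FPKM. The ranges of Orai2 and Itpr1, of Itpr1 and Stim2, and of Stim2 and Orai3 overlapped. The place of Itpr1 depended on the group. Below Stim2 in all 3 knockout libraries, it stood above Stim2 in all 3 control libraries. Stim2 exceeded Orai3 within each of the 6 libraries although their ranges met. Among the 11934 tested genes, Atp2a2 lay at percentile 96.8 of mean level, Itpr3 at 89.03, Itpr1 at 65.5 and Orai1 at 32.3.

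Across the family, no gene passed over all genes tested. The count was 0 of 8 tested, where 0.00838% of all 11934 genes passed (1 gene). Without control 2 the count was 1, Itpr1, and with any other library left out it was 0. At an unadjusted limma p under 0.05 there were 2 members, Itpr1 and Orai1, where 5.7% of all genes lay. Both were lower in the knockout, where 2.71% of all genes lay. Knockout values were below all control values for 3 of the 8, Itpr1, Orai1 and Atp2a2, where 5.35% of all tested genes were, and above all control values for 0, where 4.8% were. Itpr1 was chosen for this contrast, which leaves 2 of 7. The choice of the 10 genes was made with these results known, so nothing is read from these counts. The median log2 fold change of the 8 was -0.05, and -0.01 for the 7 other than Itpr1, beside -0.005 over all genes tested. The 7 lay between -0.21 and 0.03, with adjusted p-values between 0.869 and 0.992.

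**Figure D3:**
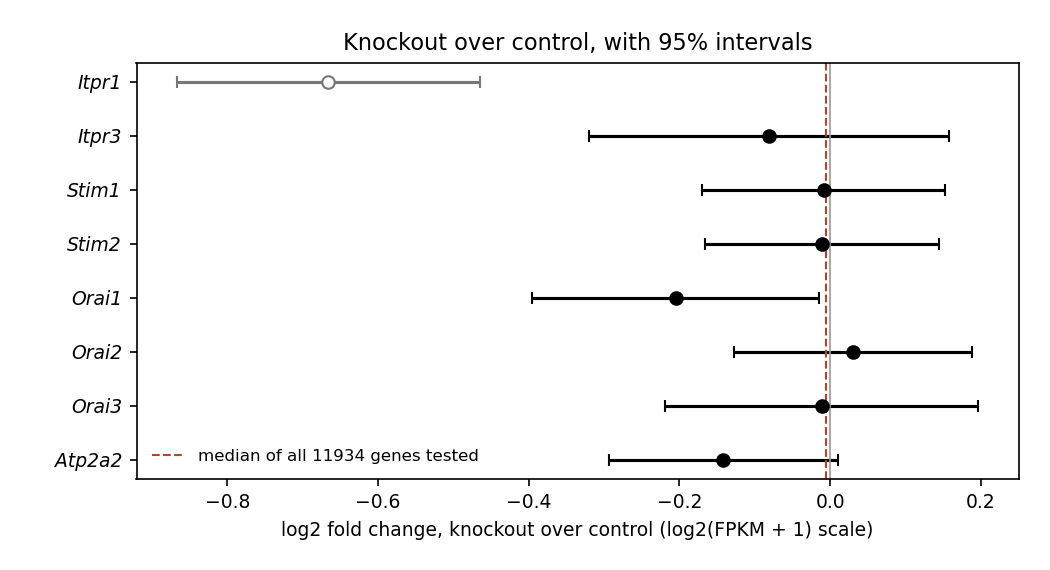
Points give the log2 fold change of knockout over control for the 8 tested genes on the log2(FPKM + 1) scale, with 95% limma intervals, and the dashed line gives the median of all genes tested. Itpr1, drawn open because it was chosen for this difference, lies at -0.67, and the others lie between -0.21 and 0.03.

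In the authors' deposited table, 5 of the 10 genes had a q-value under 0.05, where 24.4% of the 16662 genes with a q-value did. All 5 had a negative log2 ratio, where 14.1% of those genes had both. In the authors' deposited table the log2 ratio of knockout to control was -0.72 for Itpr1, with a q-value of 5.32e-209. Itpr3 had a log2 ratio of -0.08 with a q-value of 2.81e-07 in the authors' deposited table, although its libraries overlapped between the groups. The other such genes in the authors' deposited table were Atp2a2 (log2 ratio -0.14), Itpr2 (-0.35) and Orai1 (-0.25). The sources used here do not name the authors' test. By limma, which uses the spread between libraries, 0 of these genes passed, and Itpr2 was under the filter.

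**Figure D4:**
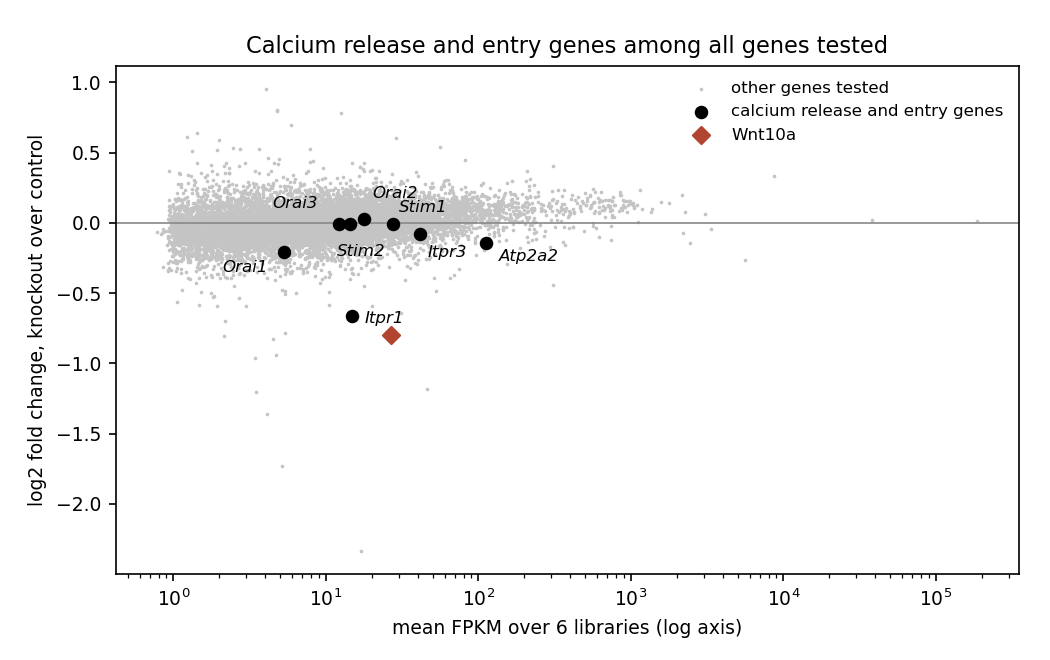
Each grey point is 1 of the tested genes, by mean FPKM over the 6 libraries (log axis) and log2 fold change of knockout over control, with the calcium genes in black and Wnt10a as a diamond. Itpr1 lies at -0.67, below the bulk of genes at its level, and 12 of the 11934 genes had a lower fold change.

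Markers of other cell types were set beside these values. The osteoclast list, of bone-resorbing cells (6 of 6 found, none at 0), summed to between 56.3 and 74.3 FPKM in knockout libraries and between 79.4 and 81.3 FPKM in control libraries. Its Acp5, Ctsk and Mmp9 had log2 fold changes of -0.45, -0.30 and -0.49 and did not pass. The smooth muscle and pericyte list (8 of 8 found, none at 0) summed to between 77.1 and 81.4 FPKM in the knockout and between 72.8 and 75.04 FPKM in the control. Its 4 tested members differed in sign and none passed. The smooth muscle genes Acta2 and Tagln had log2 fold changes of 0.40 and 0.38, and the pericyte genes Rgs5 and Cspg4 had -0.17 and -0.18. The part of either list in the values of Itpr1, Orai1 and Atp2a2 was not tested. Skeletal muscle sums ranged from 12.4 to 71.3 FPKM in the knockout and from 7.65 to 66.6 FPKM in the control. Knockout 3, the library with the most, held 11.56 FPKM of Itpr1, and control 2, with the least, held 16.63 FPKM. Atp2a1, the SERCA of fast skeletal muscle, was at 3.52 and 2.58 FPKM in knockout 3 and control 1, against 0.36 to 1.24 FPKM in the other 4 libraries. Sums of ameloblast, dental epithelium, odontoblast, neuron, endothelial, leukocyte and erythroid markers overlapped between the groups. A sum follows its most abundant genes, mainly Amelx and Ambn for ameloblasts and Col1a1, Col1a2 and Bglap for odontoblasts. The median log2 fold change was -0.09 for the ameloblast list and -0.13 for the odontoblast list, and no gene of either passed. In the ameloblast list, Klk4 and Amtn were at -0.40 and -0.39, and Amelx and Ambn at 0.01 and 0.02. Whether these lists differ from other genes was not tested. Single genes of the neuron and dental epithelium lists were apart. Uchl1, of the neuron list, was at 37.91, 36.10 and 31.42 FPKM in the knockout libraries and at 21.27, 23.68 and 23.44 FPKM in the control libraries, with no overlap, at 0.60 in log2 fold change. Its limma adjusted p was 0.0735, the same as that of Itpr1. Of that list Nefl, Nefm and Prph, which mark axons, were at 0 to 0.06 FPKM in the knockout. They were at 0 to 0.1 FPKM in control 1 and control 2. Control 3, which held the most Itpr1, had 0.69 FPKM of Nefl, 0.42 of Nefm and 0.28 of Prph. The other tested genes of the list differed in sign, with log2 fold changes of 0.42 for Stmn2, 0.05 for Tubb3, -0.09 for Snap25 and -0.24 for Gap43. Epcam, of the dental epithelium list, was at 18.08, 19.09 and 13.95 FPKM in the knockout libraries and at 13.74, 13.37 and 10.18 FPKM in the control libraries, with no overlap, at 0.42 in log2 fold change, and did not pass (limma adjusted p = 0.736). Their part in the values of Itpr1 was not tested.

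Genes that make and clear IP3 did not pass the test. Of 7 tested phospholipase C genes 0 passed in either direction. Their median log2 fold change was -0.13, and 6 of 7 were below 0, where 51.8% of all 11934 tested genes were. Whether these 7 differ from other genes was not tested. Plcg1, a form activated by growth factor receptors, averaged 31.4 ± 5.77 FPKM in knockout molars against 34.01 ± 2.98 FPKM in control molars (SD, n = 3 each). Plcd3 averaged 26.2 ± 1.06 FPKM in knockout molars against 25.3 ± 2.36 FPKM in control molars. Of the Gq proteins that switch on phospholipase C beta, Gna11 averaged 26.9 ± 0.818 FPKM in knockout molars against 28.6 ± 0.786 FPKM in control molars. The Gna11 groups did not overlap, at -0.08 in log2 fold change (SE 0.066, limma adjusted p = 0.896). Gnaq averaged 15.5 ± 1.15 FPKM in knockout molars against 15.2 ± 0.155 FPKM in control molars. Among 7 tested genes of IP3 breakdown, Inpp5a, an IP3 phosphatase, averaged 12.3 ± 0.553 FPKM in knockout molars against 13.1 ± 0.583 FPKM in control molars. Impa1, an inositol monophosphatase, averaged 9.30 ± 0.902 FPKM in knockout molars against 8.96 ± 0.570 FPKM in control molars.

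Partners of the IP3 receptors did not pass either (0 of 18 tested, median 0.02). Calm2, which encodes the calcium sensor calmodulin, averaged 183 ± 21.7 FPKM in knockout molars against 171 ± 2.73 FPKM in control molars. Fkbp1a, an immunophilin that binds calcium release channels, averaged 92.2 ± 8.66 FPKM in knockout molars against 88.5 ± 1.16 FPKM in control molars. Itprip, named after its values were seen, had the lowest adjusted p of all the calcium lists (0.678). Its product binds IP3 receptors. It was at 6.19, 5.93 and 7.37 FPKM in the knockout libraries and at 8.47, 8.49 and 8.02 FPKM in the control libraries, with no overlap, at -0.32 in log2 fold change (SE 0.091). Ryanodine receptors, the other ER calcium release channels, were near 0, with all 3 genes between 0.01 and 0.22 FPKM in every library and none tested.

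Regulators of store-operated entry gave no call (0 of 11 tested, median -0.02). Saraf, whose product slows STIM1, averaged 82.8 ± 5.64 FPKM in knockout molars against 74.1 ± 3.44 FPKM in control molars, a log2 fold change of 0.16 (limma adjusted p = 0.875). Ormdl3 averaged 47.0 ± 1.75 FPKM in knockout molars against 47.5 ± 1.13 FPKM in control molars. Of the relatives and regulators of the pumps 0 of 7 passed (median 0.06). Of these, S100a1 averaged 28.4 ± 2.69 FPKM in knockout molars against 27.2 ± 3.98 FPKM in control molars, and Tmem64 25.4 ± 1.80 FPKM in knockout molars against 25.04 ± 2.30 FPKM in control molars.

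Calcium transporters of the plasma membrane did not pass (0 of 11 tested). Of the 11, 9 had log2 fold changes below 0, where 51.8% of all tested genes did, and their median was -0.11. Whether the list differs from other genes was not tested. Trpm7, a channel for magnesium and calcium, averaged 76.1 ± 2.82 FPKM in knockout molars against 79.8 ± 4.19 FPKM in control molars. Atp2b1, a plasma membrane calcium pump, was at 51.46, 52.21 and 55.55 FPKM in the knockout libraries and at 58.16, 56.93 and 62.52 FPKM in the control libraries. Its groups did not overlap, and its log2 fold change was -0.15 with a limma adjusted p of 0.869 (SE 0.068). Slc24a4, the exchanger that maturing enamel cells need, was at 0.71 to 0.76 FPKM in the knockout and at 0.70 to 1.61 FPKM in the control, under the filter.

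Calcium-binding proteins of the cytosol included Calb1, the calbindin abundant in ameloblasts, at 410 ± 81.7 FPKM in knockout molars against 388 ± 28.4 FPKM in control molars. The 3 tested members had a median of -0.70, the value of Calml3, which like Calm4 is made in stratified epithelium. Calm4 was at 0.60 to 1.29 FPKM in the knockout libraries, and at 15.65, 1.11 and 1.33 FPKM in the control libraries. Control 1 also held an oral mucosa marker sum of 178.5 FPKM, against 9.99 to 21.2 FPKM in the knockout libraries and 21.49 and 13.97 FPKM in the other control libraries. The part of that sum in the Calm4 and Calml3 values was not tested.

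In mitochondria, Smdt1, a subunit of the calcium uniporter, averaged 95.1 ± 5.74 FPKM in knockout molars against 85.6 ± 3.55 FPKM in control molars, and Micu2, its regulator, 27.2 ± 0.772 FPKM in knockout molars against 25.6 ± 1.35 FPKM in control molars (0 of 8 tested genes passed, median 0.03). The ER calcium-binding list had 15 tested members, a median of 0.05 and 0 calls. Of these, 11 were above 0 and 4 below 0, where 51.8% of all tested genes were below 0. A difference of this list from other genes was not tested. Calr, the ER calcium store protein calreticulin, was at 265.18, 291.58 and 269.29 FPKM in the knockout libraries and at 260.34, 264.52 and 248.90 FPKM in the control libraries. These did not overlap, at 0.09 in log2 fold change (SE 0.068, limma adjusted p = 0.894). Hspa5, named after its values were seen, was at 165.75, 168.60 and 148.32 FPKM in the knockout libraries. In the control libraries Hspa5 was at 141.75, 142.58 and 130.87 FPKM, with no overlap, at 0.21 in log2 fold change (SE 0.073, limma adjusted p = 0.798). Rcn3 averaged 236 ± 4.89 FPKM in knockout molars against 236 ± 7.37 FPKM in control molars.

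Calcineurin, the calcium-activated phosphatase, and its NFAT targets gave no call (0 of 12 tested, median -0.04). Rcan2, a calcineurin regulator, was at 50.59, 53.33 and 56.63 FPKM in the knockout libraries and at 61.03, 58.02 and 65.99 FPKM in the control libraries. The groups did not overlap, and the log2 fold change was -0.20 with a limma adjusted p of 0.858 (SE 0.074). Ppp3r1, the regulatory subunit of calcineurin, averaged 29.5 ± 2.17 FPKM in knockout molars against 28.7 ± 1.33 FPKM in control molars. Over all 12 lists, 102 genes were tested and 0 passed, where 0.00838% of all 11934 tested genes did (1 gene). With so few passing anywhere, a count of 0 in a list does not show that its genes were unchanged. The groups did not overlap for 13.7% of them, where 10.1% of all tested genes did not. The median was -0.02, beside -0.005 over all genes.

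**Figure D5:**
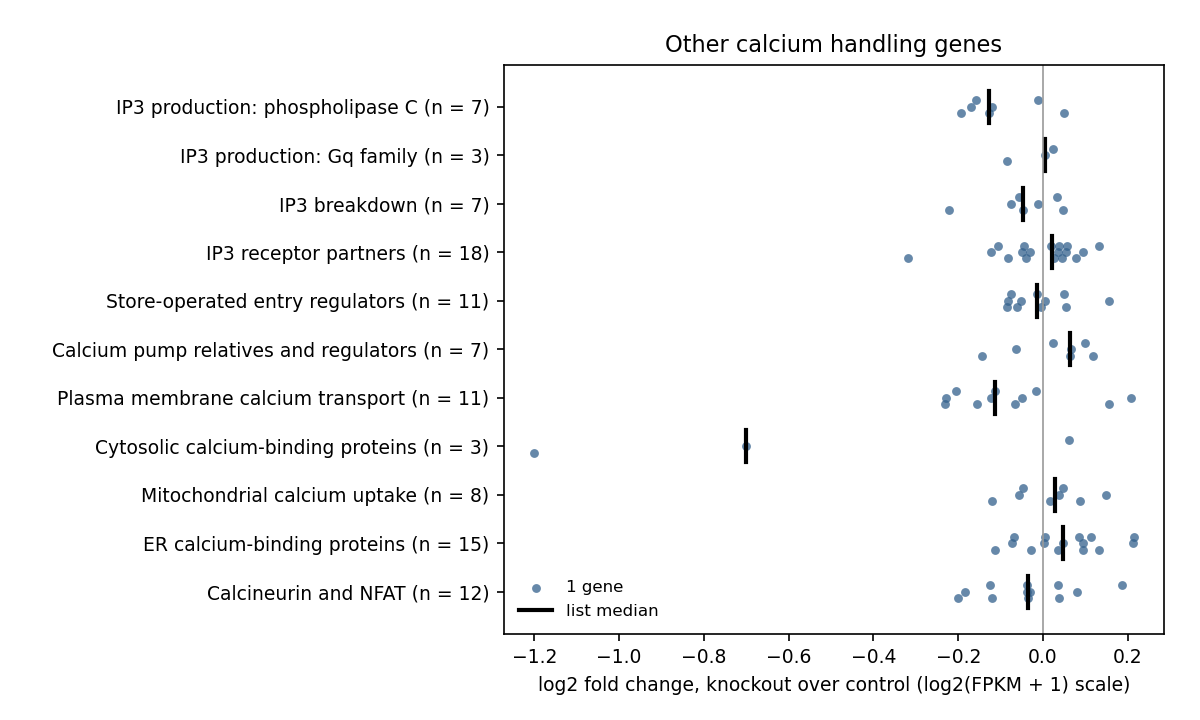
Each point is the log2 fold change of 1 tested gene of a calcium list, knockout over control on the log2(FPKM + 1) scale, and the black bar is the list median. List medians lie between -0.13 and 0.06, apart from the 3 cytosolic calcium-binding genes at -0.70. That median is the value of Calml3, which was highest in control 1. The 15 ER calcium-binding genes have a median of 0.05.

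Genes were also ranked by how closely their log2(FPKM + 1) followed that of Itpr1 over the 6 libraries, among 8303 genes with a mean of 5 FPKM or more. The closest were Olfm1 (Pearson r = 0.987), Gsk3b (0.986), Mab21l3 (0.983), Lhfpl2 (0.981) and Galnt1 (0.974). All 5 were lower in each knockout library than in any control library, as Itpr1 was, the difference for which it was chosen. Gsk3b, a kinase of the Wnt/beta-catenin pathway among others, was at 19.14, 19.85 and 19.56 FPKM in the knockout libraries and at 22.05, 21.01 and 22.52 FPKM in the control libraries, a smaller difference than that of Itpr1 (log2 fold change -0.16, limma adjusted p = 0.869). With the group means subtracted, the closest were Itfg2, Spsb1, Pskh1, Zfr and Tubb2a, with r between 0.987 and 0.998. These values were the highest picked from 8303 genes over 6 libraries, and describe these libraries only. Of the other 7 members tested, Orai1 had an r of 0.84 and Atp2a2 of 0.79 over the 6 libraries, and the rest lay between -0.23 and 0.19. With the group means subtracted, r was -0.95 for Orai3, -0.82 for Stim2 and 0.70 for Orai2. It was 0.28 for Atp2a2, 0.16 for Orai1, -0.16 for Stim1 and -0.22 for Itpr3. All genes of a library share its depth and scaling.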

How the data were processed

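Messenger RNA of first mandibular molars was sequenced on a BGISEQ-500 instrument, per the labels. The authors' deposited table gives FPKM per library. The submitters' processing notes name Bowtie2 and the build mm10; the sources used here name no counting tool or gene annotation. Beside FPKM, the authors deposited a log2 ratio, p-value and q-value per gene. FPKM is relative to each library's total, of which Amelx takes a large part. Library depth came from the spacing of low FPKM values (30 bases subtracted from the transcript length; between 86.3% and 90.8% of values within 0.15 of a whole read, where chance gives 30%), and reads per gene were rebuilt from it; intervals from reads cover counting error only. Symbols of 25 genes stored as dates were restored from gene numbers.

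The 11934 genes that reached 1 FPKM in 3 or more libraries were tested with limma-trend (limma 3.58.1, R 4.3.3) on log2(FPKM + 1), group the only term, Benjamini-Hochberg over all genes at 0.05. Shares used exact permutation tests (scipy 1.17.1). Gene positions and transcripts came from GENCODE M21. Members and lists were chosen with earlier results of these data known. The rule for names took all members, and of each list the 2 most abundant tested genes if none passed; others are said to be named after their values were seen, or were added as checks. Alternatives were a pseudocount of 0.1, no filter, a filter at 5 FPKM, median-ratio scaling, a replicate block, removal of the trend with transcript length, limma-voom on rebuilt reads, and each library left out.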

Additional observations from a re-analysis of the deposited data

How the results depend on the processing

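Over 13 alternatives, 0 of the other 7 genes tested passed (lowest adjusted p 0.234, Atp2a2 without knockout 3). Itpr2 and Atp2a3 were under the filter and were fitted only without it. The members past the threshold rose to 1, Itpr1, with a filter at 5 FPKM, with the replicate block, with limma-voom on rebuilt reads and without control 2. The range over libraries left out was 0 to 1. The log2 fold change of Itpr1 stayed between -0.74 and -0.58, with adjusted p-values between 0.0148 and 0.497. Over all genes, the higher count was 1 with a filter at 5 FPKM and 4 with the replicate block, and between 0 and 3 with a library left out (3 without knockout 3). The lower count was 0 with no filter, 2 with a filter at 5 FPKM, 2 with limma-voom, 4 with the replicate block, and between 1 and 3 with a library left out. The cause of these shifts was not tested.

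Whether the replicate numbers pair the libraries cannot be settled from 3 libraries per group. The correlation of same-numbered deviations from the group means was -0.062, 0.17 and 0.388 for numbers 1, 2 and 3. For libraries of different number it ran from -0.398 to 0.304. Of the knockout libraries, 1 of 3 (knockout 3) correlated best with the control of its own number. The replicate block gave Itpr1 an adjusted p of 0.0453.

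Signs turned in 11 of 91 refits of the other 7 genes, all near 0. With the trend on transcript length removed, Stim1 was at 0.017 and Stim2 at 0.037. With a library left out, Itpr3 ranged from -0.18 to 0.0067 (0.0067 without knockout 1), Stim1 from -0.043 to 0.042, Stim2 from -0.040 to 0.011, and Orai3 from -0.106 to 0.073. Orai1, Orai2 and Atp2a2 kept their sign in all 13. Median-ratio scaling moved the median of all genes by 0.00046. With a library left out, the knockout minus control difference in share ranged from -9.81 to -5.57 percentage points for Itpr1 (-5.57 without control 3), from -2.996 to -1.61 for Orai1 and from -0.159 to -0.012 for Atp2a2. The Stim1 share, 0.031 points apart with all libraries, ranged from -0.623 (without knockout 3) to 0.892 (without knockout 1), so its sign is not settled. From rebuilt reads the differences were -8.64 for Itpr1, 0.039 for Stim1, -1.60 for Orai1 and -0.090 for Atp2a2. Depth limits Itpr2, Orai1 and Atp2a3 most.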

Other observations

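Values are given for the genes beside Itpr1 on chromosome 6, the nearest 3 on each side present in the table, a set chosen after the data were seen. Of the 6, 5 were tested and 0 passed. Sumf1, which ends 27514 bases before the start of Itpr1 and encodes a sulfatase-activating enzyme, was at 18.74, 18.69 and 19.23 FPKM in the knockout libraries and at 18.44, 18.91 and 19.26 FPKM in the control libraries (log2 fold change 0.001, SE 0.067). Bhlhe40, a transcription factor that starts 109520 bases after the end of Itpr1, averaged 11.4 ± 0.526 FPKM in knockout molars against 11.2 ± 0.895 FPKM in control molars (SD, n = 3 each). The log2 fold changes of Setmar, Arl8b and Edem1 were 0.16, 0.08 and -0.02, with limma adjusted p-values between 0.896 and 0.981. Lrrn1 was under the filter and not tested. It was at 0.73, 0.58 and 0.60 FPKM in the knockout libraries and at 0.66, 0.66 and 1.82 FPKM in the control libraries, so the groups overlapped and control 3 held the most, as for Itpr1.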
